A study of Mus musculus with 3 samples.

Results

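The genes described are 10 components of the Wnt pathway in the embryonic mouse limb: the ligands Wnt3, Wnt5a and Wnt6, the R-spondins Rspo2 and Rspo3, the nuclear factors Lef1 and Tcf7, the feedback target Axin2 and the secreted antagonists Dkk1 and Sfrp2. They were taken by name from 22238 protein-coding genes of the GENCODE vM1 annotation of mm9. Each gene was given every peak that overlaps its span or lies within 100 kb of its start, the 5′ end of the span. All 10 were found, and together they received 27 of the 20479 RNAP2 peaks and 15 of the 10634 Med12 peaks in the deposited lists. Distal forelimbs were dissected from embryos of normal mouse gestation at E12.5, and the cells were dissociated with collagenase and fixed for ChIP-seq of RNA polymerase II (RNAP2) and of Med12, a subunit of the Mediator complex. The text of the series names E11.5, whereas the sample labels and the methods give E12.5, the stage used here. The series holds 1 RNAP2 library, 1 Med12 library and 1 input library, with no mutant or treated group and no replicate, so no value has a replicate error and no test between conditions could be made.

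Wnt ligands are secreted lipid-modified proteins that bind Frizzled receptors. In the canonical branch, receptor activation stops the destruction complex from degrading beta-catenin, which then enters the nucleus and activates genes with DNA-bound factors of the TCF/LEF family. R-spondins strengthen this signal by sparing Frizzled receptors from removal, while secreted antagonists block ligands or co-receptors. In the limb bud, Wnt signals from the ectoderm and its apical ridge and from the distal mesenchyme act in outgrowth and patterning. Mediator bridges transcription factors and RNAP2, and the 2 are found together at active promoters and enhancers.

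A joint distal site is an RNAP2 peak more than 1 kb from every annotated start of a protein-coding transcript that overlaps a Med12 peak by at least 1 bp. Lef1 and Sfrp2 had 2 such sites each, Wnt5a and Axin2 had 1 each, and the other 6 genes had none. Their sequences are shown because TCF/LEF proteins, among them the products of Lef1 and Tcf7, bind DNA with a recognisable core, and each window can be read for it. The 300 bases of mm9 at the centre of the interval shared by the 2 peaks are given for the site with the highest Med12 score at each of the 4 genes, from the plus strand. Capitals mark the TCF/LEF heptamers CTTTGAA or CTTTGAT or CTTTGTA or CTTTGTT, which were searched on both strands. The Lef1 window, upstream of the gene, is chr3:130808923-130809222. The Sfrp2 window, downstream of the gene, is chr3:83620468-83620767. The Axin2 window, inside an intron of Axin2, is chr11:108808444-108808743. The Wnt5a window, inside an intron of the neighbouring gene Erc2, is chr14:29281298-29281597.
Lef1 upstream site: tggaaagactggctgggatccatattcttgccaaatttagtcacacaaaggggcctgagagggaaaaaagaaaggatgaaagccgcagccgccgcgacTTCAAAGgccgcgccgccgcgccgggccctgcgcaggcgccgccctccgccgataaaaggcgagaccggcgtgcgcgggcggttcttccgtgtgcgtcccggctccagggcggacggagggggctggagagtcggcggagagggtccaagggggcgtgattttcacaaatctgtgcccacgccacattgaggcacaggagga
Sfrp2 downstream site: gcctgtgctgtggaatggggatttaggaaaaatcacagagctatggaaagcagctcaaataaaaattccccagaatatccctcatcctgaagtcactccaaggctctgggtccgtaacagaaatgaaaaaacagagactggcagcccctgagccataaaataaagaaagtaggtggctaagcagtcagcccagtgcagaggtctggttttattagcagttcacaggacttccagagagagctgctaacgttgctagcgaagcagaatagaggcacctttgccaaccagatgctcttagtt
Axin2 intronic site: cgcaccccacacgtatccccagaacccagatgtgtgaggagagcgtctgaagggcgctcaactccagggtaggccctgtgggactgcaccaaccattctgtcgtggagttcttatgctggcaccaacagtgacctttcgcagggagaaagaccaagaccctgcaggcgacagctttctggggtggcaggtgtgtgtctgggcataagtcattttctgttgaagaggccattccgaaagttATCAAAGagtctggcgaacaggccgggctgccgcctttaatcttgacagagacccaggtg
Wnt5a upstream site: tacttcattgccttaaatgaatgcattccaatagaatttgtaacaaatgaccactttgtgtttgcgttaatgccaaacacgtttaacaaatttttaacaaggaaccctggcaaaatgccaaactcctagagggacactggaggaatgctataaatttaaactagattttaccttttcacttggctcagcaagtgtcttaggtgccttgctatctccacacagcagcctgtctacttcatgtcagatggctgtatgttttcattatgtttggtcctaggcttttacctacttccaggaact

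Further windows were added after their values had been seen. The window chr14:29320205-29320504, on the plus strand, is the centre of the Wnt5a intronic Med12 peak, which has the highest Med12 score near any of the 10 genes. The windows chr3:83551643-83551942 and chr3:130839823-130840122, on the plus strand, are the other joint distal sites of Sfrp2 and Lef1, so that all 6 sites are shown.
Wnt5a intronic Med12 peak: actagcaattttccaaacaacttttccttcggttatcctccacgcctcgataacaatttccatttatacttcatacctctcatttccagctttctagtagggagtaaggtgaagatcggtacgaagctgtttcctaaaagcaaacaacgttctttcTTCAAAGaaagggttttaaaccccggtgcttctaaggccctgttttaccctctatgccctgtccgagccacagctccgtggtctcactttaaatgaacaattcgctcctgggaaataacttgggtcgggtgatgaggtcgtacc
Sfrp2 upstream site: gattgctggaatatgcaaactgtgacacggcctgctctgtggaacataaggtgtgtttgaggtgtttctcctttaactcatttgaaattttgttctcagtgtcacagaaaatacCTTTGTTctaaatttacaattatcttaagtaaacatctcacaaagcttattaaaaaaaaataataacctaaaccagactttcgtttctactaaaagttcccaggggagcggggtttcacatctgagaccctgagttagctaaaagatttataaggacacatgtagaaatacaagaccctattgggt
Lef1 intronic site: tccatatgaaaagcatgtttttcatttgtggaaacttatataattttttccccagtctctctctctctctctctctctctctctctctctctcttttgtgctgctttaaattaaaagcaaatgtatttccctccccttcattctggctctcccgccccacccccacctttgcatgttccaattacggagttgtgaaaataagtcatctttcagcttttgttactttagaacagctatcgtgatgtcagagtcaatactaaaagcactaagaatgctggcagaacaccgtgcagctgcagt

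The Lef1 upstream window and the Wnt5a intronic window each contained TTCAAAG, the reverse complement of CTTTGAA. The Axin2 window contained ATCAAAG, the reverse complement of CTTTGAT, and the Sfrp2 upstream window contained CTTTGTT. A heptamer was thus present in 3 of the 6 joint distal sites, against 739 of 2837 such sites in the genome (26.0%). None of the 6 windows contained the HOX13-type heptamers CAATAAA or TCGTAAA, found in 17.2% of all joint sites, nor the GLI nonamer GACCACCCA, found in 0.176%. In the 300 bases before the start, a TCF/LEF heptamer was found in 1 of the 10 genes, Tcf7, against 17.4% of all protein-coding genes. A HOX13-type heptamer was also found in 1 of the 10, Axin2, as TTTATTG, the reverse complement of CAATAAA, against 5.50% of all genes. At Axin2, the 1235 bp shared by the RNAP2 and Med12 peaks at the start contained CTTTGAT beginning 78 bp after the start and CTTTGAA beginning 441 bp after it. That interval is longer than the other windows and was chosen after its values were seen. In the same interval around the starts of all 22238 genes, 52.2% had at least 1 heptamer and 19.6% had at least 2. A match of 7 letters is a description of the window and does not show that a factor bound there.

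The deposited value of a peak is the score given by the peak caller, which is the negative log10 of a p-value multiplied by 10. Since this score rises with sequencing depth and peak width, it was read only within a list. The median score was 123.39 in the RNAP2 list and 56.8 in the Med12 list. Both lists begin at a score of 40, a p-value of 0.0001, and hold no read counts, so the depth at a site is unknown and a missing peak means only that no peak was listed. Distal limb mesenchyme was represented by RNAP2 peaks at the starts of 5 of 5 marker genes (Hoxa13, Hoxd13, Hoxd12, Prrx1 and Msx1). The neighbours Hoxd13 and Hoxd12 had the same score, 1854.76, and may share 1 peak. Over all protein-coding genes, the share with RNAP2 at the start was 40.1%. Neither list had a peak at the start of any of 5 markers of the apical ridge and ectoderm (Fgf8, Sp8, Trp63, Krt14 and Krt5). RNAP2 peaks were listed at the starts of 2 of 3 cartilage markers, 1 of 4 muscle markers, 1 of 3 endothelial markers, 0 of 3 blood markers, 0 of 2 neural markers and 3 of 3 proximal limb markers. With all proximal markers occupied as well, Meis2 at a score of only 43.0, these counts do not single out distal mesenchyme. In a mixture of cell types, binding in few cells and weak binding in many cells cannot be told apart.

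RNAP2 was found within 1 kb of the start at Wnt5a, Lef1, Axin2, Dkk1 and Sfrp2, which is 5 of 10 genes (50.0%) against 40.1% of all protein-coding genes. Med12 was found at 1 start, that of Axin2, against 8.23% of all genes, so that Axin2 was also the only gene of the 10 with both proteins at the start, against 7.60%. These shares at the starts were near those of all protein-coding genes, taken without regard to CpG content. Joint distal sites were listed for 4 of 10 genes against 14.0% of all genes, and 2 of 10 genes had at least 2 against 3.56%. Of the 27 RNAP2 peaks, 5 were at the start of their gene, 1 at another coding start of Axin2, 3 at the starts of other genes and 18 away from starts, of which 8 were intronic, 8 intergenic and 2 exonic. Of the 15 Med12 peaks, 1 was at the start of its gene, 1 at the start of another gene and 13 away from starts, of which 6 were intronic and 7 intergenic. In each list, 9 of these peaks overlapped a peak of the other list. In the whole RNAP2 list, 2837 of 20479 peaks were joint sites away from starts, against 6 of these 27. The other classes and overlaps have no share over all peaks beside them, so they only describe the regions. The members' scores ran from 42.31 to 2444.74 for RNAP2 and from 40.32 to 256.49 for Med12.

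**Figure D1:**
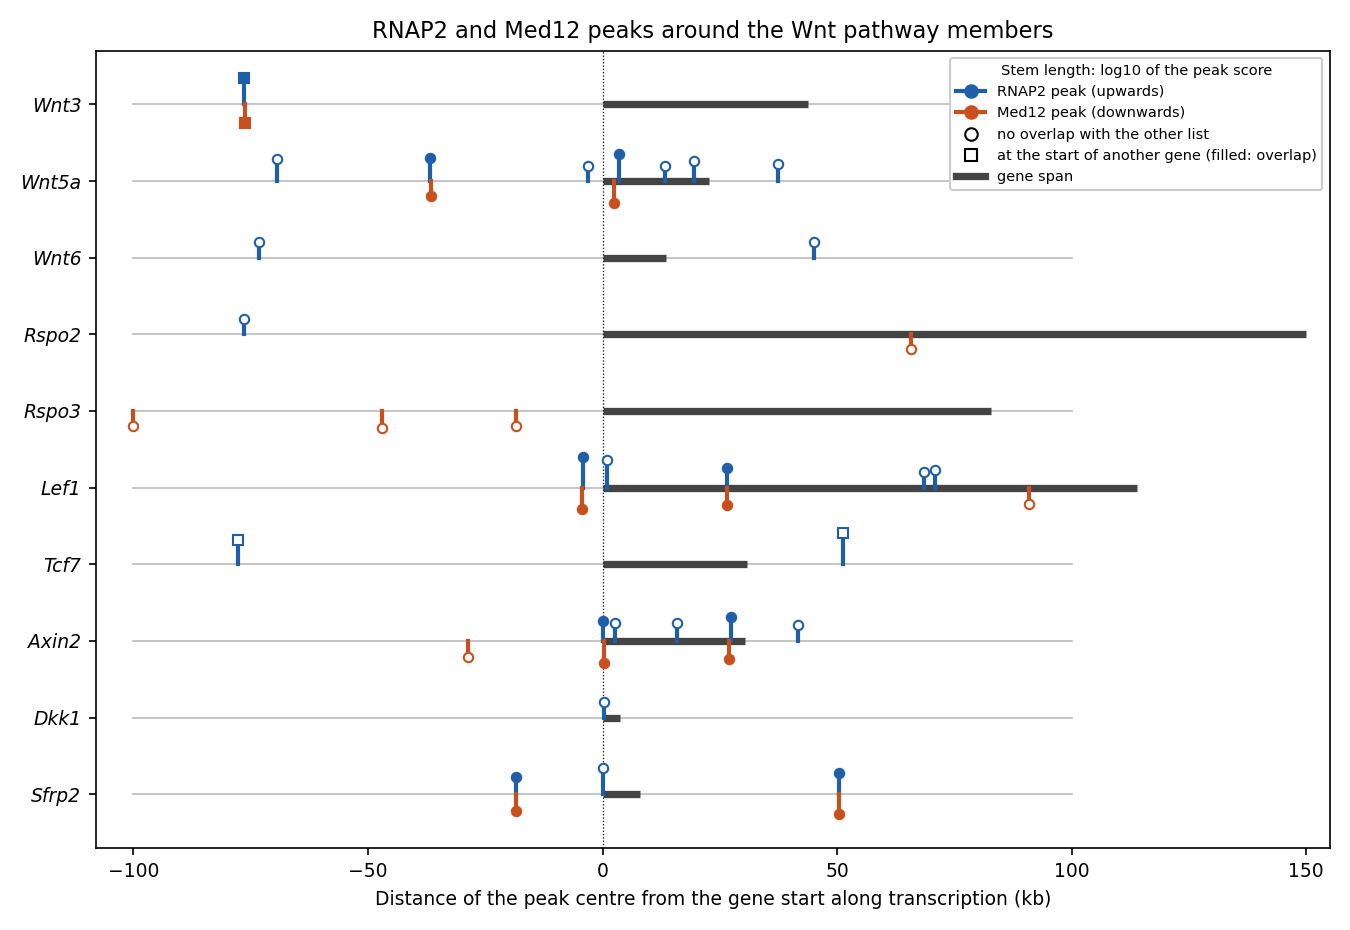
Position of each RNAP2 peak (blue stems, upwards) and Med12 peak (orange stems, downwards) relative to the start of the 10 genes, in kb along the direction of transcription, with stem length proportional to the log10 of the score and filled symbols where the 2 lists overlap. Overlapping peaks away from starts are seen at Wnt5a, Lef1, Axin2 and Sfrp2, whereas the peaks in the Wnt3 and Tcf7 regions are squares, at the starts of other genes.

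Among the ligands, Wnt5a stood apart from Wnt3 and Wnt6. Wnt5a, a largely non-canonical ligand of the distal limb mesenchyme that is needed for outgrowth, lies at chr14:29317936-29340633 on the plus strand. Its start was covered by an RNAP2 peak of 8419 bp that ran from 29317159 to 29325577 and scored 827.83. Of the 8914 genes with an RNAP2 peak at the start, 99.7% had a peak of the same width or narrower, and 72.0% had the same score or a lower one. The Wnt5a peak was thus among the widest at any start, with a score nearer the middle, and it spanned both coding starts, which are 6655 bp apart. The centre of this peak is in an exon of another annotated gene, Gm2670, so the signal of the 2 genes cannot be told apart. Within the RNAP2 peak lay a Med12 peak that ran from 29319230 to 29321479 and scored 256.49, rank 362 of the Med12 list. This Med12 peak began 1294 bp after the start, inside an intron, so it was counted neither at the start nor as a joint distal site. A non-coding Wnt5a transcript starts nearby, 1150 bp after the gene start.

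The joint distal site of Wnt5a was 36.5 kb upstream, in an intron of Erc2. Its RNAP2 peak, from 29280482 to 29281965, had a score of 348.68, and its Med12 peak, from 29281135 to 29281760, had a score of 44.21. The latter was at the low end of its list, where 18.2% of peaks had the same score or a lower one. Wnt5a had 7 RNAP2 peaks in all, a number reached by 12.7% of protein-coding genes. The 5 RNAP2 peaks that did not overlap Med12 had scores of 228.45 at 69.4 kb upstream, 42.31 at 3.11 kb upstream, 48.32 at 13.4 kb downstream of the start, 168.86 at 19.6 kb downstream and 63.81 at 37.3 kb downstream. The site at 19.6 kb was in an exon of Wnt5a, and the furthest upstream site was again in Erc2.

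Wnt3, a canonical ligand of the limb ectoderm that acts in the formation of the apical ridge, lies at chr11:103635464-103679271 on the plus strand. Its region held 1 RNAP2 peak with a score of 775.1 and 1 Med12 peak with a score of 103.06. These peaks overlapped, and both were at the start of Gosr2, a gene of vesicle transport, at 76.4 kb and 76.3 kb upstream of the Wnt3 start. No peak of either list touched Wnt3 itself. Wnt6, another ligand of the ectoderm, lies at chr1:74818466-74831893 on the plus strand. It had RNAP2 peaks with scores of 46.05 at 73.3 kb upstream, in an exon of Ttll4, and 53.33 at 45.2 kb downstream, between genes. No Med12 peak was in its region, and the nearest was 192636 bp from the start. The starts of Wnt3 and Wnt6, like those of all 5 ridge and ectoderm markers, had no peak of either list, although the regions of Wnt6, Fgf8 and Sp8 held RNAP2 peaks away from these starts, and the part of ectodermal cell number in this absence was not tested.

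The R-spondins had no peak of either list at their starts. Rspo2, an R-spondin of the apical ridge needed for limb growth, lies at chr15:42852357-43002364 on the minus strand. Its region held an RNAP2 peak with a score of 46.73, 76.5 kb upstream, and a Med12 peak with a score of 40.32 in an intron, 65.7 kb downstream of the start. Both were near the lower limits of their lists. Rspo3, another R-spondin, known from the limb mesenchyme and from vessels, lies at chr10:29172915-29255673 on the minus strand. It was the only gene of the 10 without an RNAP2 peak in its region, and the nearest was 173153 bp from its start. It nevertheless had 3 Med12 peaks, a number reached by 10.2% of protein-coding genes. These lay upstream between genes, with scores of 43.74 at 18.5 kb, 68.95 at 47.1 kb and 44.45 at the edge of the region. None of the 3 overlapped an RNAP2 peak. Those with scores of 43.74 and 44.45 were under 50, near the lower limit of the list.

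Lef1 and Tcf7, which encode the DNA-binding partners of beta-catenin, differed at their starts. Lef1 lies at chr3:130813389-130927274 on the plus strand. An RNAP2 peak of 2869 bp, from 130812992 to 130815860, covered its start and the coding start 2326 bp further on, with a score of 1099.67. Of the 8914 occupied starts, 79.4% had the same score or a lower one, and no Med12 peak was listed within 1 kb. Med12 was instead found 4.32 kb upstream, from 130808481 to 130809664, with a score of 223.06, rank 456 of its list. The RNAP2 peak it overlapped, from 130807989 to 130810533, had a score of 2216.42, rank 653 of its list. The upstream site thus had a higher RNAP2 score than the start, with a width of 2545 bp against 2869 bp. Among the 2837 joint sites of the genome, 98.3% had the same RNAP2 score or a lower one, and 87.4% the same Med12 score or a lower one.

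The Lef1 upstream site was richer in CpG than nearly all other joint sites away from starts. Its printed window was 64.0% G and C, with an observed to expected CpG ratio of 0.992. The medians of all 2837 joint sites were 43.3% and 0.260, and 99.4% of sites had the same CpG ratio or a lower one. The nearest annotated transcript start of any type was that of Lef1-001, 3725 bp away, so the annotation places no start inside the site. In the other 5 joint distal sites the CpG ratio ran from 0.178 at Wnt5a to 0.469 at Axin2. The Lef1 gene also held a joint distal site in an intron, 26.6 kb downstream of the start, with scores of 120.39 for RNAP2 and 83.49 for Med12. Further into the gene, RNAP2 peaks had scores of 53.14 and 76.45, at 68.5 and 70.9 kb, and a Med12 peak had a score of 57.17, at 90.9 kb.

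Tcf7, the other factor, lies at chr11:52065873-52096681 on the minus strand. No peak of either list was within 1 kb of any of its 4 coding starts. The RNAP2 peaks in its region belonged to the starts of Skp1a, a ubiquitin ligase subunit, with a score of 2444.74 at 51.2 kb downstream, and of Vdac1, a mitochondrial channel, with a score of 415.43 at 77.7 kb upstream. The Skp1a peak had the highest RNAP2 score of the 27, so the highest value in the regions belonged to a neighbouring gene. The nearest Med12 peak to Tcf7 was 265667 bp from the start.

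**Figure D2:**
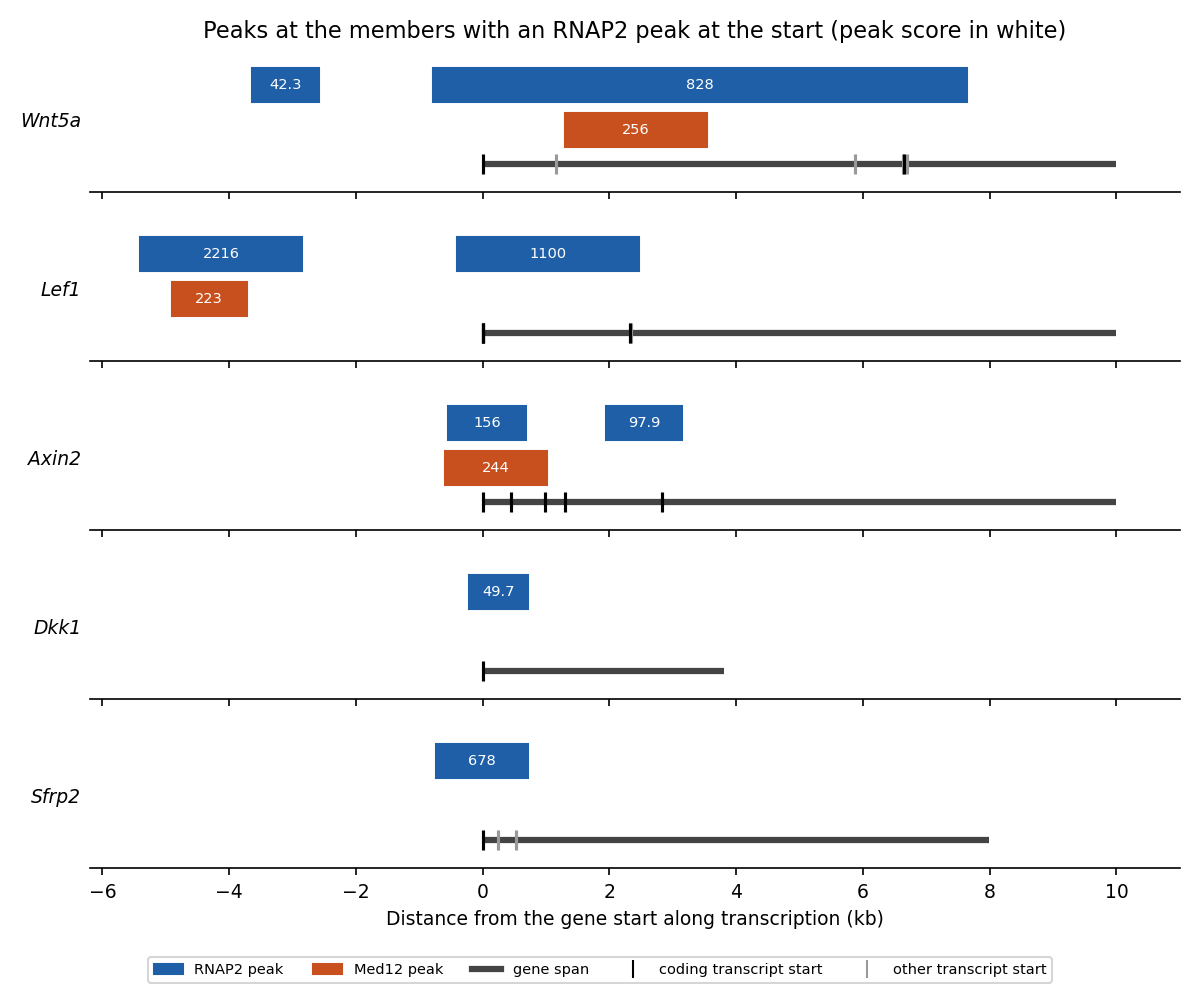
RNAP2 peaks (blue) and Med12 peaks (orange) drawn to scale from 6 kb before to 10 kb after the start of the 5 genes with RNAP2 there, with the score in white, the gene span as a grey line and transcript starts as ticks. The Wnt5a RNAP2 peak is 8419 bp wide and holds the Med12 peak, the Lef1 Med12 peak lies upstream under the higher of the 2 RNAP2 peaks, and Axin2 has Med12 on the start itself.

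Axin2 encodes a scaffold of the destruction complex, is induced by canonical signalling and dampens it. It lies at chr11:108781663-108812097 on the plus strand. RNAP2 covered the start from 108781114 to 108782348 (score 156.33), and Med12 did so from 108781067 to 108782674 (score 244.03). The RNAP2 score was modest, since 25.1% of the 8914 occupied starts had the same score or a lower one. The Med12 score was high, since 96.0% of the 1830 genes with Med12 at the start had the same score or a lower one, and the median was 67.5. A further RNAP2 peak, with a score of 97.88, covered the coding start of Axin2-002, 2832 bp after the gene start, and had no Med12 peak.

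The joint distal site of Axin2 was in an intron, 26.9 kb downstream of the start. Its RNAP2 peak, from 108807785 to 108810419, had a score of 438.57 and was 2635 bp wide. Its Med12 peak, from 108807930 to 108809257, had a score of 83.02. The annotated transcript start nearest to the site was that of the non-coding Axin2-003, 2995 bp away. As at Lef1, the RNAP2 score at this distal site was above that at the gene start, and here the distal peak was also the wider. The Med12 score was higher at the start. Other peaks near Axin2 had RNAP2 scores of 79.11 in an intron at 15.8 kb and 60.06 between genes at 41.7 kb downstream, and a Med12 score of 50.0 at 28.6 kb upstream.

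The antagonists both had RNAP2 at the start without Med12. Sfrp2, a secreted Frizzled-related protein that binds Wnt ligands, lies at chr3:83570243-83578238 on the plus strand. The RNAP2 peak at its start, from 83569511 to 83570956, had a score of 677.61, and 66.3% of occupied starts had the same score or a lower one. Joint distal sites lay on either side. The upstream site, at 18.5 kb, had an RNAP2 score of 71.94 and a Med12 score of 65.58. The downstream site, at 50.4 kb and between genes, had an RNAP2 score of 209.83 and a Med12 score of 156.51, rank 908 of the Med12 list. The downstream site thus scored higher in both lists. The nearest annotated transcript start to it was 24614 bp away, in Tlr2.

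Dkk1, which binds the LRP co-receptors and so blocks canonical signalling, lies at chr19:30620353-30624155 on the minus strand. The peak at its start, from 30623441 to 30624364, was the only peak of its region. It had an RNAP2 score of 49.66 and a width of 924 bp, and only 3.13% of the 8914 occupied starts had the same score or a lower one. The score was under 50, which corresponds to the p-value threshold in the stated settings, so without such peaks 4 of the 10 starts would be occupied. The nearest Med12 peak was 129264 bp away.

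**Figure D3:**
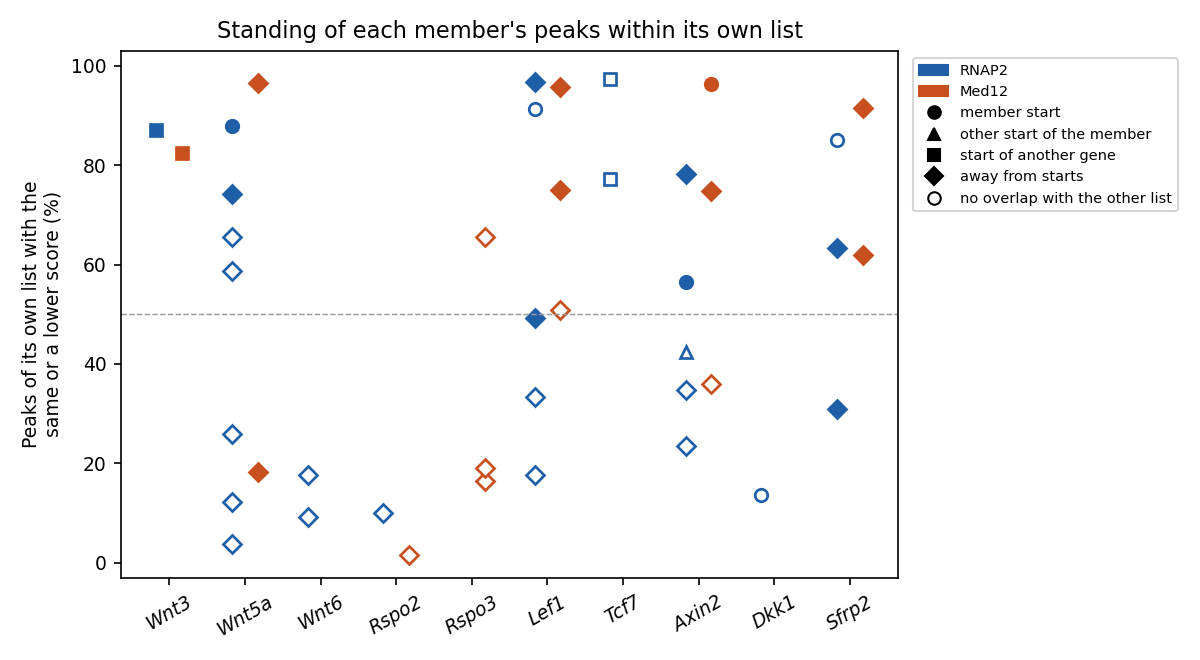
Share of peaks of the same list with the same or a lower score, in percent, for each RNAP2 peak (blue) and Med12 peak (orange) of the 10 genes, with the symbol giving the kind of site and filled symbols an overlap with the other list. The Med12 peaks at 96.6% for Wnt5a, 96.3% for Axin2, 95.7% for Lef1 and 91.5% for Sfrp2 stand above the other Med12 peaks, and the Dkk1 start peak is at 13.7%.

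The 77 other genes of the pathway gave a similar picture at the starts. RNAP2 was at the start of 42 of them (54.5%) and Med12 at 8 (10.4%), against 40.1% and 8.23% of all protein-coding genes. A joint distal site was listed for 31 (40.3%), against 14.0% of all genes. The differences between roles given next were not tested, and the CpG content of these starts was not compared. By role, RNAP2 was at the start of 2 of 16 other Wnt ligands, 2 of 2 genes of ligand secretion, 12 of 15 receptors, 2 of 7 genes of the R-spondin axis, 8 of 10 genes of signal transduction, 9 of 10 nuclear factors, 2 of 12 secreted antagonists and 5 of 5 feedback targets. Ctnnb1, which encodes beta-catenin, had RNAP2 at another coding start only, which would make 9 of 10 for signal transduction. The occupied ligands besides Wnt5a were Wnt11, with an RNAP2 score of 395.23, and Wnt2b, with a score of 67.64. The occupied antagonists besides Dkk1 and Sfrp2 were Wif1, with a score of 765.99, and Sfrp1, with a score of 57.6.

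Both proteins were at the starts of Fzd2, Gsk3b, Fzd8, Fzd1, Tle4, Ror2, Gsk3a and Apc. Of these, only Fzd2, a Frizzled receptor, had a higher Med12 score (291.73) than the Axin2 start (244.03). The scores of the other 7 were between 41.21 at Apc, part of the destruction complex, and 96.91 at Gsk3b, its kinase. Fzd1 (45.42), Tle4 (44.63), Ror2 (43.84), Gsk3a (42.93) and Apc had Med12 scores under 50, the score of the stated p-value threshold. Without such peaks only Fzd2, Gsk3b and Fzd8 would remain. None of the other 5 feedback targets (Nkd1, Nkd2, Sp5, Myc and Ccnd1) had Med12 at the start. With only 8.23% of all genes having Med12 there, this count does not set Axin2 apart from them. For comparison, RNAP2 was at the start of 3 of 11 FGF genes and 7 of 11 BMP genes, and joint distal sites were listed for 5 and 6 of them. Counting any coding start, RNAP2 was at 6 of 11 FGF genes, with Fgf9, Fgf10 and Fgfr1 added, and still at 7 of 11 BMP genes, 43 of 77 other Wnt pathway genes and 5 of the 10 genes, against 42.0% of all genes. The share of the 10 genes with a joint distal site, 4 of 10, was thus close to the 40.3% of the other pathway genes, and all these shares were above the 14.0% of all genes. Neighbouring genes were counted separately in every share, so 1 site can count for more than 1 gene. The neighbours Wnt3a and Wnt9a, whose regions overlap, had 1 joint distal site each and may share it. The differences between the lists were not tested.

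**Figure D4:**
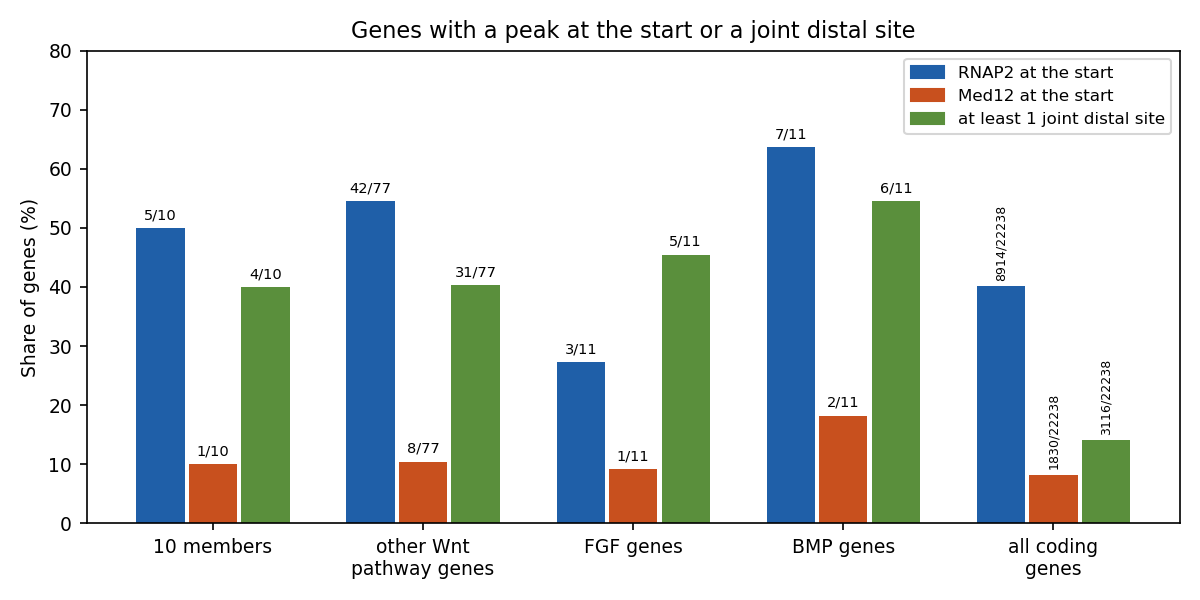
Share of genes, in percent, with RNAP2 at the start (blue), Med12 at the start (orange) and at least 1 joint distal site (green) among the 10 genes, 77 other Wnt pathway genes, 11 FGF genes, 11 BMP genes and all 22238 protein-coding genes, with the counts above the bars. The green bars of the signalling lists run from 4 of 10 genes to 6 of 11, above the 14.0% of all genes.

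A high CpG content did not set the occupied starts of the 10 genes apart from the others. Over 500 bp on either side of the start, the observed to expected CpG ratio was 0.617 at Wnt3, 0.639 at Rspo3, 0.734 at Rspo2, 0.738 at Wnt6 and 0.902 at Tcf7, none of which had RNAP2. It was 0.445 at Dkk1, 0.654 at Wnt5a, 0.663 at Lef1, 0.788 at Sfrp2 and 0.832 at Axin2, which had. In the genome, 74.4% of 9832 CpG-rich starts (a ratio of at least 0.6 and at least 50% G and C) had RNAP2, against 12.9% of 12406 other starts. All 5 unoccupied genes had CpG-rich starts, whereas Dkk1 was the occupied gene whose start was not CpG-rich. Among the genes with CpG-rich starts, Wnt5a, Lef1, Sfrp2 and Axin2 were thus occupied and 5 were not, a share below 74.4%. This difference was not tested.

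**Figure D5:**
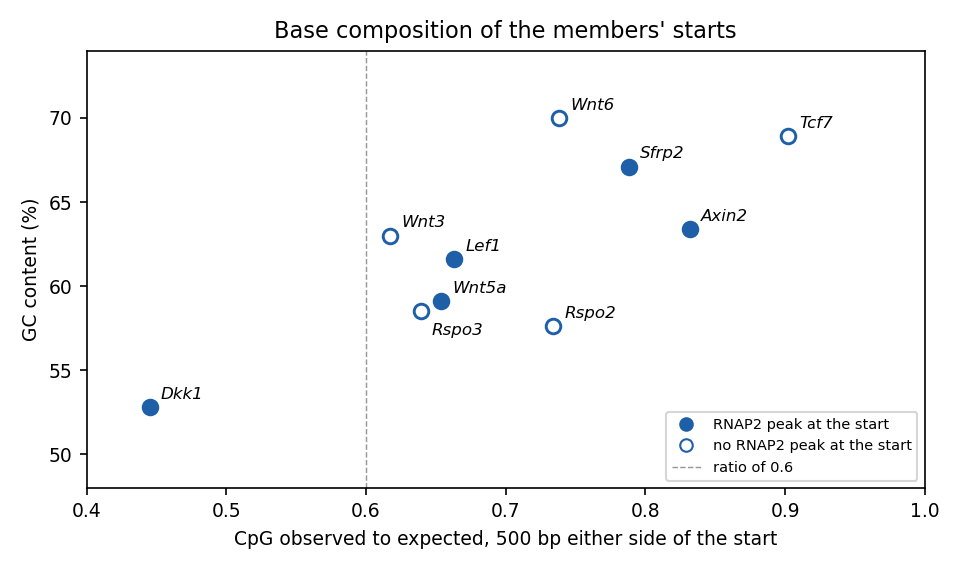
Observed to expected CpG ratio and G and C content (percent) within 500 bp of the start for the 10 genes, with filled circles for an RNAP2 peak at the start and open circles for none, and a dashed line at a ratio of 0.6. The circles of both kinds are mixed, with Tcf7 at the highest ratio (0.902, open) and Dkk1 at the lowest (0.445, filled).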

How the data were processed

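The peak lists of the RNAP2 and Med12 libraries were used as deposited, and the input library was not analysed here. Per the labels and the methods, reads had their first base removed and were aligned to mm9 with Bowtie, duplicates were discarded, and the authors ran MACS 1.4.1 on each library. Whether the input served as control is not given among the stated settings. The deposited value is a score, the negative log10 of a p-value multiplied by 10. Peaks were assigned to genes and to each other in Python 3.11.15 (numpy 2.4.6) using the GENCODE vM1 annotation, and sequences were read from the NCBIM37 (mm9) genome. No peak ran past the end of its chromosome (0 in both lists). The counting was tested on simulated peaks. Figures were drawn with matplotlib 3.10.9. With 1 library per antibody, no p-value was computed.

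The members and gene lists were chosen with earlier results of these data known. Named were all 10 members with each peak at their starts and each joint distal site, and the other pathway genes with both lists at the start, and other peaks and genes, the CpG content, the Axin2 start interval and the additional windows were chosen after their values were seen. The alternatives were a score of at least 50 or 100, an overlap of 50% of the shorter peak, 5 kb around the start, windows of 50 and 200 kb, any coding start, and sequence windows of 200 and 500 bp.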

Additional observations from a re-analysis of the deposited data

How the results depend on the processing

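The 8 counts over the 10 genes were recomputed under 9 alternatives where these applied, giving 51 values, of which 42 were within 1.5 times the reported count. With a score of at least 100, RNAP2 peaks fell from 27 to 14, Med12 peaks from 15 to 5, joint distal sites from 6 to 2 and genes with such a site from 4 to 2, which were Lef1 and Sfrp2. With 5 kb on either side of the start, 3 genes had Med12 at the start and the same 3 had both proteins, since the Med12 peaks of Wnt5a and Lef1 then counted. Joint distal sites fell to 5, because the Lef1 upstream site then counted at the start. With a window of 200 kb, RNAP2 peaks rose to 46, Med12 peaks to 29 and joint distal sites to 11, at 4 genes. A score of at least 50 left 4 genes with RNAP2 at the start, without Dkk1, and 3 with a joint distal site, without Wnt5a. No share over all genes is given for these changed scores and distances. The changed counts therefore have no background beside them. No paired analysis was possible because there was 1 library per antibody. The lists give no counts, so neither the error of a score nor the depth at a missing peak is known, and distance does not show which gene a distal site acts on.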

Other observations

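A wider interval of 500 kb on either side of the start was also counted, including the joint sites within 100 kb. In it, 8 joint sites lay around Wnt5a, a number reached by 0.666% of protein-coding genes, and 7 around Sfrp2, reached by 1.13%. Lef1 had 4, reached by 6.56% of genes, while Axin2 and Wnt6 had 2 each, reached by 24.6%. None lay within 500 kb of Wnt3, Rspo2, Rspo3, Tcf7 or Dkk1, as was the case for 50.6% of protein-coding genes. The nearest joint site was 303 kb downstream of Wnt6, 624 kb downstream of Rspo2 in an intron of Angpt1, 792 kb upstream of Rspo3 and 893 kb downstream of Tcf7 in an intron of Col23a1. It was 1150 kb upstream of Wnt3 and 1797 kb upstream of Dkk1, in an intron of Sgms1. These intervals hold other genes, and the counts were chosen after the lists had been seen.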
